A study of Homo sapiens with 16 samples.

Results

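The regions described here are stretches of chromatin that carried a called peak of histone H3 lysine 27 acetylation (H3K27ac) in the ovarian cancer line CAOV4 and none in its cisplatin-resistant derivative CAOV4cis. They were found by merging the H3K27ac peaks of both lines on the autosomes wherever peaks shared at least 1 bp, and by keeping merged regions over 2000 bp with a CAOV4 peak and no CAOV4cis peak. Of 15549 merged regions over 2000 bp, 2092 were lost in CAOV4cis in this sense, 11060 had a peak in both lines (kept) and 2397 had a CAOV4cis peak only (gained). The lost regions thus made up 13.5% of the regions and the gained regions 15.4%. Members were chosen by the presence and width of listed peaks in CAOV4 and CAOV4cis, so both shares follow from that choice and are a description.

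The study profiled epithelial ovarian cancer lines by chromatin immunoprecipitation of mononucleosomes and sequencing (ChIP-seq), to follow enhancers while cells become resistant to cisplatin (cPt). CAOV4 is a high-grade serous line, left untreated here, and CAOV4cis was derived from it by prolonged culture in rising cPt and kept in cPt. A2780, an endometrioid line, was untreated, and A2780cis is its cPt-resistant counterpart, labelled as cPt treated and also kept in the drug. In a further pair of samples, A2780 cells expressed 1 of 2 hairpins against MBD3, shMBD3.26 or shMBD3.232, for 1 week. The hairpins were doxycycline-induced from a Tet-on vector and hairpin-expressing cells were sorted by their GFP, whereas the A2780 sample they are set against here was untransduced, so transduction, drug selection, doxycycline and sorting cannot be told apart from MBD3 loss. H3K27ac was profiled in all 6 conditions and H3K9 acetylation (H3K9ac) in A2780 and A2780cis, with 1 library per condition and mark. Each resistant line is 1 derivative of 1 parent line, and no condition had a replicate, so the values below come with no test. The 95% intervals in parentheses (Wilson) reflect counting error alone, and regions of 1 chromosome or cluster are not independent of each other.

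H3K27ac marks active enhancers and active promoters, and is written mainly by the acetyltransferases p300 and CBP and removed by histone deacetylases. MBD3 is a subunit of the NuRD complex, which joins nucleosome remodelling to histone deacetylation at regulatory elements. H3K9ac is found at active promoters and at many active enhancers, and wide or clustered stretches of H3K27ac are often found near genes that define the identity of a cell.

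The deposited peak lists hold the start and end of each peak, with a score of 0 throughout, so that presence, width and position were the only readouts. The autosomal H3K27ac lists held 22826 peaks in CAOV4, 24660 in CAOV4cis, 27932 in A2780, 20245 in A2780cis, 23270 with shMBD3.26 and 18936 with shMBD3.232, and the H3K9ac lists 22438 in A2780 and 15058 in A2780cis. A longer list has more chances to meet a region, so shares are read against the same share among kept and gained regions. No peak was listed on chromosomes 20 to 22, and on each of chromosomes 1 to 12 the last CAOV4 peak lay well short of the chromosome end, between position 121165200 on chromosome 12 and 197193000 on chromosome 1. Sequence beyond these positions was not covered, and the shares by chromosome below refer to the covered part. Positions are 1-based in GRCh37/hg19, and the genes at these positions were not annotated here.

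Lost regions were narrow. Each was a single CAOV4 peak, and together they covered 7.065 Mb. Their widths ran from 2200 to 19000 bp with a median of 3000 bp and quartiles of 2400 and 3800 bp. Gained regions had the same median of 3000 bp but reached only 10400 bp, and kept regions had a median of 5200 bp. Over 10 kb there were 14 lost, 3 gained and 1825 kept regions.

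The share of CAOV4 peaks without a CAOV4cis partner fell step by step with peak width. It was 88.0% of the 3003 peaks up to 400 bp and 50.5% of those over 1000 to 2000 bp. Above the width limit it was 31.3% of 3772 peaks over 2 to 3 kb, 19.8% of 2574 over 3 to 4 kb and 10.7% of 2788 over 4 to 6 kb. Only 4.84% of 1879 peaks over 6 to 10 kb and 1.26% of 1113 peaks over 10 kb had no partner. A wide peak has more chances to share a base with a CAOV4cis peak, so this fall in part follows from the rule. The width limit lay within this gradient. Without it, 9155 regions would count as lost, of which 22.9% exceed it. There were 319 unpartnered CAOV4 peaks of 2000 bp, just outside the limit, and 331 of 2200 bp, just inside. These neighbours had an A2780 peak in 36.05% and 35.05% of cases and an A2780cis peak in 34.2% and 30.2%, so their state in the other cell line did not jump at the limit.

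**Figure D1:**
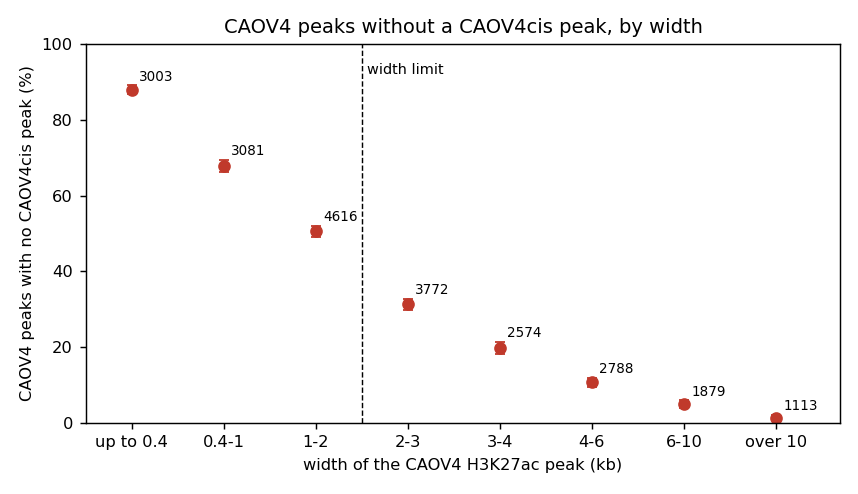
Percent of autosomal CAOV4 H3K27ac peaks that share no base with a CAOV4cis peak (y axis), by width of the peak in kb (x axis), with 95% Wilson intervals and the number of peaks beside each point. The share falls from 88.0% in the narrowest peaks to 1.26% over 10 kb, and the dashed line marks the 2000 bp limit used to choose the lost regions.

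Many lost regions lay close to chromatin with a listed CAOV4cis peak. The distance from a lost region to the nearest CAOV4cis peak had a median of 8000 bp and quartiles of 2400 and 24400 bp. For 844 lost regions (40.3%) a CAOV4cis peak lay within 5 kb, and for 44 it touched the region without sharing a base. Gained regions had the same median distance of 8000 bp to the nearest CAOV4 peak. At the other end, 150 lost regions (7.17%) lay over 100 kb from any CAOV4cis peak. The most isolated, chr2:91814801-91817400, was 2822800 bp from the nearest one.

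In A2780, a cell line that had no part in choosing the regions, lost regions were acetylated far less often than kept ones. An A2780 H3K27ac peak was present at 833 of 2092 lost regions (39.8%, interval 37.7 to 41.9), against 58.4% of all 15549 regions. The share was 66.6% among kept regions (65.7 to 67.5) and 37.1% among gained regions (35.2 to 39.1). Lost regions therefore stood below kept regions by more than counting error, and their interval overlapped that of gained regions.

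The other A2780-derived lists gave the same order. A2780cis had an H3K27ac peak at 782 lost regions (37.4%, 35.3 to 39.5), against a background of 55.7%, with 64.0% of kept and 33.5% of gained regions. With shMBD3.26 the share was 36.4% (762 regions) against a background of 55.4%, with 63.9% of kept and 33.0% of gained regions. With shMBD3.232 it was 35.8% (749 regions) against a background of 53.8%, with 62.1% of kept and 31.2% of gained regions. In each list the lost share lay a few percentage points above the gained share, with overlapping intervals in A2780cis and with shMBD3.26 and separate ones with shMBD3.232, while the distance to kept regions was far wider.

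**Figure D2:**
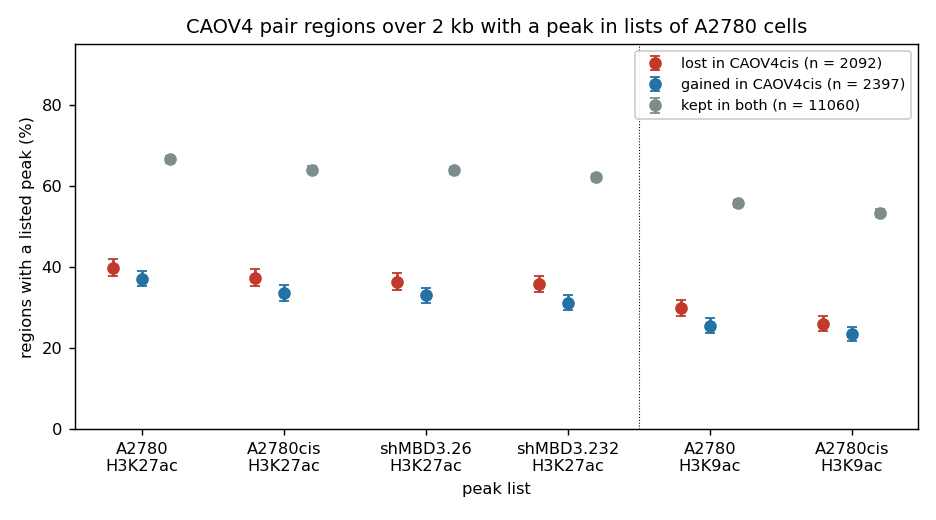
Percent of lost, gained and kept CAOV4 regions over 2 kb (y axis) that share at least 1 bp with a peak of each list from A2780 cells (x axis), with 95% Wilson intervals. In every list kept regions (grey) sit well above lost (red) and gained (blue) regions, which lie within a few percent of each other, with A2780 H3K27ac at 66.6%, 39.8% and 37.1%.

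The low share held within bands of region width. Among regions over 2 to 3 kb, an A2780 peak was present at 39.0% of lost regions (36.2 to 41.8) and at 58.6% of kept regions (56.2 to 60.9). Over 6 kb it was present at 36.2% of lost regions (27.6 to 45.7) and at 69.7% of kept regions (68.4 to 71.1). Over 3 to 4 kb and over 4 to 6 kb the values for lost regions were 43.8% and 37.7%. A kept region is a merger of peaks of both lines and a lost region a single CAOV4 peak, so kept CAOV4 peaks were also taken by their own width. Their A2780 shares over the 4 bands were 63.8%, 65.7%, 68.4% and 66.8%, again above lost regions in each band. Gained regions had 33.3%, 41.8%, 44.1% and 35.4% in the same bands, and only in the narrowest band did their interval lie apart from that of lost regions.

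**Figure D3:**
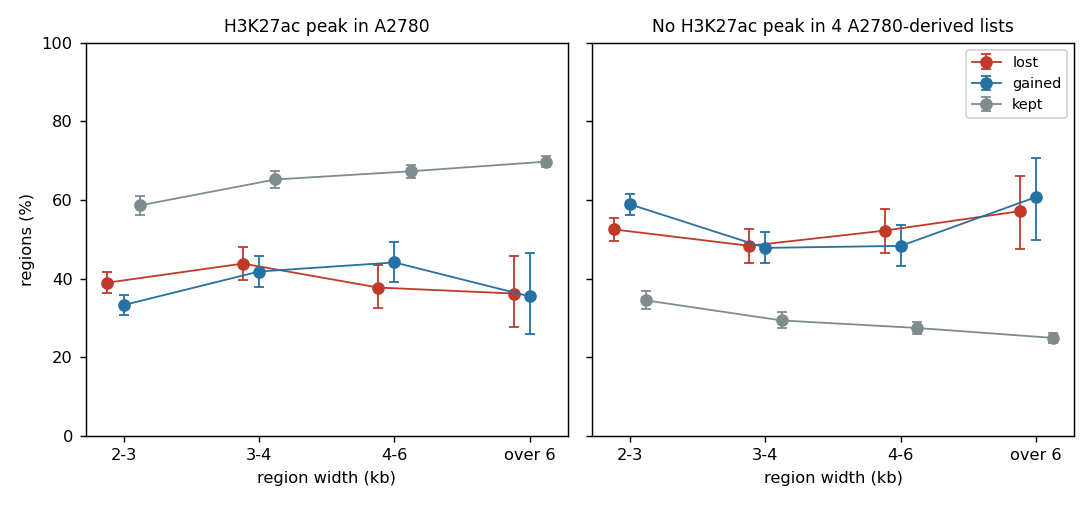
Percent of lost, gained and kept regions (y axes) with an A2780 H3K27ac peak (left) and with no H3K27ac peak in A2780, A2780cis or either hairpin sample (right), by region width in kb (x axes), with 95% Wilson intervals. Kept regions rise from 58.6% to 69.7% on the left, with widths of merged peaks, and lost regions lie between 36.2% and 43.8%.

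Taking the 4 A2780-derived H3K27ac lists together, lost regions fell mostly into the extremes. No peak in any of the 4 lists was found at 1081 lost regions (51.7%, 49.5 to 53.8), against a background of 35.1%. All 4 lists had a peak at 591 (28.3%, 26.4 to 30.2), against a background of 47.9%. The remaining 420 (20.1%, 18.4 to 21.8) had a peak in 1 to 3 lists, against a background of 17.0%. Among kept regions 27.8% had none, 15.4% had 1 to 3 and 56.8% had all 4, and among gained regions the shares were 54.5%, 21.5% and 23.9%.

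Among the 420 mixed regions, no single pattern dominated. The most frequent were a peak in A2780 only (69 regions, 3.30% of lost regions against a background of 2.59%) and in A2780cis only (64, 3.06%, background 2.45%). Then came A2780 and both hairpin samples but not A2780cis (48, 2.29%, background 2.11%) and shMBD3.26 only (37, 1.77%, background 1.35%). Regions with peaks in both hairpin samples and neither A2780 nor A2780cis numbered 10 (0.478%, background 0.347%). These shares were near the background or up to a percentage point above it.

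The regions present in all 4 A2780-derived lists and those absent from all 4 had the same median width of 3000 bp, but differed in place. Of the regions present throughout, 19.1% lay on chromosome 19, against 4.53% of those absent. Their median distance to the nearest CAOV4cis peak was 12200 bp, against 8000 bp for the absent and 5300 bp for the mixed regions. The widest lost regions were of the absent kind: of the 14 over 10 kb, 13 had no H3K27ac and no H3K9ac peak in any A2780-derived list, whereas 24.8% of the 1825 kept regions over 10 kb had no H3K27ac peak there.

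Where A2780 cells did have a peak at a lost region, it usually spanned most of it, as at kept and gained regions. The median share of the region covered was 83.3% in A2780, 90.2% in A2780cis, 75.4% with shMBD3.26 and 84.6% with shMBD3.232. The region lay wholly inside A2780 peaks in 322 of 833 cases and inside A2780cis peaks in 335 of 782. The peaks met had median widths of 4000 bp in A2780 and 4400 bp in A2780cis, above the medians of 2200 and 2800 bp over all autosomal peaks of these lists, and a wide peak has more chances to meet a region. At the 1259 lost regions without an A2780 peak, the nearest one was a median of 25400 bp away and within 5 kb for 18.8%, and for kept regions without an A2780 peak these values were 34000 bp and 14.5%.

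H3K9ac, profiled only in A2780 and A2780cis, was listed at 625 lost regions in A2780 (29.9%, 28.0 to 31.9) against a background of 47.6%. In A2780cis it was listed at 545 (26.1%, 24.2 to 28.0) against a background of 45.1%. Most of these also had H3K27ac. Lost regions with an A2780 H3K27ac peak had H3K9ac in 66.5% of cases (63.2 to 69.6), and those without had it in 5.64%. In A2780cis the values were 66.2% and 2.06%.

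The H3K9ac share also differed by how widely a lost region was acetylated in A2780 cells, as it did among kept and gained regions. At lost regions with H3K27ac in all 4 lists, 79.2% had H3K9ac in A2780, 80.4% in A2780cis and 68.0% in both. At lost regions with H3K27ac in none of them, 3.89% had H3K9ac in A2780, 0.555% in A2780cis and 0 of 1081 in both, which allows a share of up to 0.354%. With H3K27ac in all 4 lists, 87.7% of kept and 77.0% of gained regions had H3K9ac in A2780. With H3K27ac in none of them, these shares were 4.94% and 4.21%. Among regions with an A2780 H3K27ac peak, lost regions carried H3K9ac less often than kept regions (80.2%, 79.3 to 81.1), and gained regions stood at 60.6% (57.3 to 63.7). These shares were not taken within bands of width, and kept regions were wider, with a median of 5200 bp against 3000 bp.

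The design also asks whether regions lost in one resistant line were lost in the other. A2780cis and the hairpin samples are all set against the same A2780 library, so these comparisons are not independent and are given side by side. Of the lost regions, 678 had a peak in both A2780 and A2780cis, 1155 in neither, 155 in A2780 only and 104 in A2780cis only. The 155 regions without their A2780 peak in A2780cis were 7.41% of the lost regions, against a background of 6.59%. The 104 in the opposite direction were 4.97%, against a background of 3.86%.

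Set against the regions with a peak in either line of the A2780 pair, turnover over all widths was higher at lost regions than at kept ones in both directions. Of 937 lost regions with a peak in A2780 or A2780cis, 16.5% (14.3 to 19.1) had it in A2780 only and 11.1% (9.24 to 13.3) in A2780cis only. Kept regions had 8.77% (8.16 to 9.42) and 5.05% (4.59 to 5.56). Gained regions had 19.1% (16.8 to 21.7) and 10.5% (8.71 to 12.52). Regions gained in CAOV4cis were thus missing from A2780cis about as often as regions lost in CAOV4cis, with overlapping intervals. In the narrowest band, over 2 to 3 kb, A2780-only regions were 18.4% of lost (15.3 to 21.98), 20.7% of gained (17.4 to 24.5) and 9.01% of kept (7.45 to 10.9) regions. In the opposite direction the intervals overlapped in that band, with 10.9% (8.45 to 13.8) of lost and 7.62% (6.18 to 9.36) of kept regions in A2780cis only. Over 3 to 4 kb (narrowly) and over 4 to 6 kb the intervals of lost and kept regions lay apart in both directions. These bands used the merged width of kept regions, and kept CAOV4 peaks by their own width were not compared here. A2780-only regions were 13.3% of lost and 7.80% of kept regions over 3 to 4 kb, and 16.5% and 8.10% over 4 to 6 kb. A2780cis-only regions were 10.1% (6.92 to 14.46) and 4.97% (3.92 to 6.29), then 15.8% (10.57 to 22.93) and 4.67% (3.84 to 5.66). Over 6 kb the intervals overlapped in both directions, with 5 and 2 of the 40 lost regions against 9.499% and 4.49% of kept ones. The A2780 list was the longer of the pair, and with each list limited to the same number of its widest peaks the order of the directions turned, to 12.1% of lost regions in A2780 only and 15.0% in A2780cis only.

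In the hairpin samples, too, peaks of A2780 were missing more often at lost than at kept regions, and peaks found only with a hairpin were also more frequent at lost regions. With shMBD3.26, 144 lost regions had an A2780 peak and none with the hairpin, which is 6.88% of the lost regions against a background of 5.71%, and 73 had the reverse (3.49%, background 2.68%). With shMBD3.232 the counts were 146 (6.98%, background 6.64%) and 62 (2.96%, background 2.0%). As a share of the 833 lost regions with an A2780 peak, 17.3% (14.9 to 20) had none with shMBD3.26 and 17.5% (15.1 to 20.3) had none with shMBD3.232. The kept regions gave 7.69% and 9.25%, and the gained regions 20% and 23.1%. Taken over all regions of a class, hairpin-only peaks were found at 2.38% of kept and 3.34% of gained regions with shMBD3.26. With shMBD3.232 these shares were 1.67% and 2.67%. The shares of both directions were not taken within bands of width or with lists of equal length. Both hairpins shared a peak at 660 lost regions, with 102 (4.88%, background 4.72%) found with shMBD3.26 and not shMBD3.232, and 89 (4.25%, background 3.11%) the other way round. Kept regions had 4.28% and 2.53%, and gained regions 6.63% and 4.80%.

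The share of lost regions with an A2780 peak varied with distance from the nearest CAOV4cis peak, without a steady trend. An A2780 peak was present at 38.9% of the 257 lost regions within 1 kb of a CAOV4cis peak, at 36.2% of the 426 over 5000 to 12500 bp away and at 42.9% of the 522 over 12500 to 50000 bp away. The highest share, 50% (42.1 to 57.9), was found at the 150 regions over 50 to 100 kb away, and the 150 beyond 100 kb had 36.0% (28.8 to 43.9). Presence in all 4 A2780-derived lists was 24.9% within 1 kb, 22.8% over 1 to 5 kb and 24.4% over 5000 to 12500 bp, then 33.9%, 40.7% and 34.0% in the 3 bands beyond.

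Lost regions were unevenly spread over the chromosomes. Over all autosomes 15.9% of the 13152 CAOV4 regions over 2000 bp were lost. The share was highest on chromosome 18, with 54 of 172 (31.4%, 24.9 to 38.7), and on chromosome 2, with 143 of 458 (31.2%, 27.1 to 35.6), followed by chromosome 19 with 202 of 799 (25.3%, 22.4 to 28.4) and chromosome 4 with 74 of 316 (23.4%, 19.1 to 28.4). It was lowest on chromosome 12, with 96 of 869 (11.0%, 9.13 to 13.3). The first 4 of these chromosomes, singled out after their values were seen, held 22.6% of the lost regions and 13.3% of the CAOV4 regions.

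Among narrow peaks of like width, chromosomes 18, 2 and 19 were again the 3 highest. Of CAOV4 peaks over 2 to 3 kb, 57.9% (44.98 to 69.8) were lost on chromosome 18, 47.4% (39.8 to 55.2) on chromosome 2 and 46.5% (40.5 to 52.6) on chromosome 19, against 24.8% (19.5 to 31.0) on chromosome 12 and 21.4% (15.7 to 28.4) on chromosome 15, the lowest. Over 3 to 4 kb the order was different at the top, with 40.9% (31.4 to 51.0) on chromosome 2, 28.6% (16.3 to 45.1) on chromosome 18, 26.3% on chromosome 4 and 25.9% on chromosome 19. Gained regions did not follow in step: as a share of CAOV4cis regions they were 26.2% on chromosome 2 and 23.9% on chromosome 4, but 19.2% on chromosome 18, 17.7% on chromosome 19 and 17.5% on chromosome 12.

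The state of lost regions in A2780 varied by chromosome as well. On chromosome 19, 144 of 202 lost regions had an A2780 peak (71.3%, 64.7 to 77.1), and kept regions there had one in 90.3%. On chromosome 5 it was 13 of 79 (16.5%, 9.88 to 26.1) against 60.5% of kept regions, and on chromosome 8 it was 20.3% against 48.4%. Lost regions stood below kept regions on each of the 19 autosomes with peaks. Leaving out chromosome 19 lowered the A2780 share to 36.5% for lost, 35.1% for gained and 65.2% for kept regions.

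**Figure D4:**
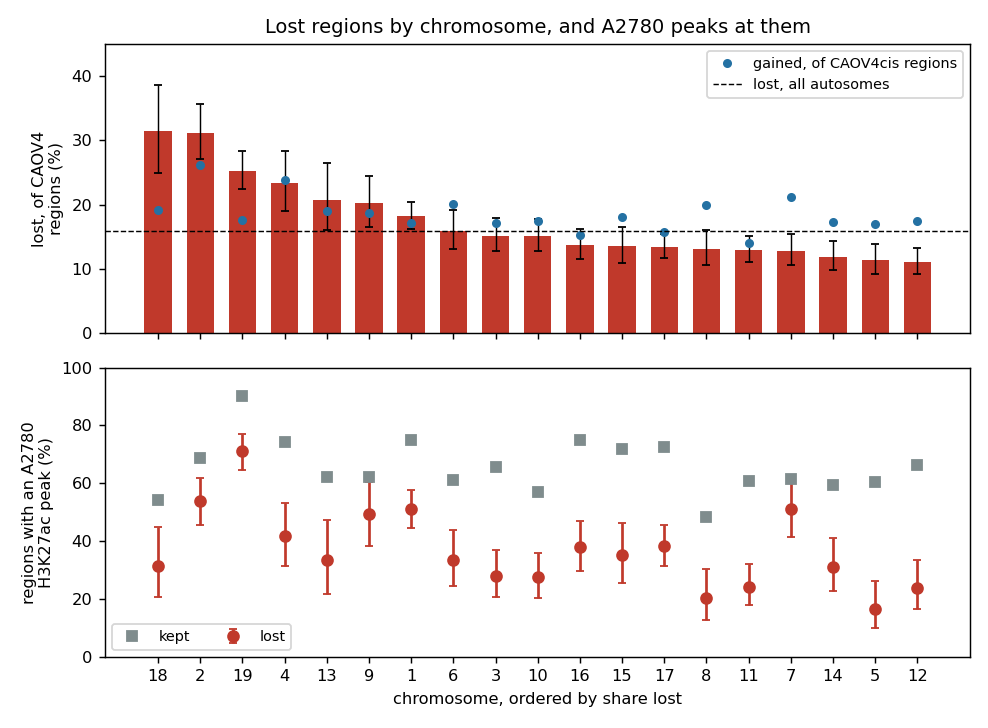
Upper panel: lost regions as a percent of CAOV4 regions over 2000 bp on each chromosome (red bars, 95% Wilson intervals), with gained regions as a percent of CAOV4cis regions (blue points) and the 15.9% over all autosomes (dashed line). Lower panel: percent of lost (red, with intervals) and kept (grey) regions with an A2780 H3K27ac peak, where chromosome 19 is highest at 71.3% and 90.3% and chromosome 5 lowest for lost regions at 16.5%.

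On a finer scale, 228 bins of 5 Mb held at least 20 CAOV4 regions over 2000 bp. The median bin had lost 13.3% of them, with quartiles of 7.89% and 21.0%, and 8 bins had lost none while 25 had lost over 30%. The highest bin was chromosome 2 from 100 to 105 Mb, with 9 of 21 lost (42.9%, 24.5 to 63.5). It held the widest lost region, and 7 of its 9 lost regions had no peak in the A2780-derived lists. Next were chromosome 16 from 55 to 60 Mb and chromosome 4 from 140 to 145 Mb, each with 12 of 29 lost (41.4%). On chromosome 16 the bin also held 10 gained regions, and 5 of its lost regions had an A2780 peak. On chromosome 4 there were 4 gained regions, and 7 of the 12 lost ones had no peak in the A2780-derived lists.

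Chromosome 19 from 30 to 35 Mb and chromosome 2 from 10 to 15 Mb completed the 5 highest bins, each with 9 of 22 lost (40.9%). The lost regions of the chromosome 19 bin had an A2780 peak in 6 of 9 cases, and those of the chromosome 2 bin in 3 of 9. With so few regions a bin, the intervals of all 5 overlapped.

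To describe clustering, CAOV4 peaks of any width were stitched when they lay within 12500 bp of each other, the distance commonly used to join constituents of super-enhancers. A lost region was the only CAOV4 peak of its cluster in 754 cases (36.0%), and 1023 (48.9%) lay in a cluster that also held a kept region. Another lost region shared the cluster for 462 (22.1%, in 197 clusters), and 150 (7.17%) lay in the 41 clusters with at least 3 lost regions. Whether lost regions shared clusters more often than their number alone would give was not tested.

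Lost regions that clustered together were less often acetylated in A2780 cells. An A2780 peak was present at 46.3% (42.8 to 49.9) of the solitary ones, at 32.5% (28.4 to 36.9) of those with another lost region in the cluster and at 22.7% (16.7 to 30) of those in clusters with 3 or more. Of the last group 74.0% had no peak in any of the 4 A2780-derived lists. A decline with crowding was also seen in kept peaks. From peaks alone in their cluster to clusters of 8 or more CAOV4 peaks, the A2780 share went from 74.7% to 57.5% for kept peaks over 2000 bp and from 46.3% to 28.8% for lost ones. Over the same steps the share of CAOV4 peaks that were lost went from 19.5% (18.3 to 20.8) to 14.0% (12.53 to 15.7).

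The cluster with the most lost regions was chr17:68130001-68277000, a span of 147.0 kb with 18 CAOV4 peaks. It held 8 lost regions of 2200 to 14600 bp that covered 61.6 kb, 8 shorter CAOV4 peaks that were also unpartnered, and 2 kept regions. H3K27ac peaks covered 93.8 kb of the span in CAOV4 and 6.6 kb in CAOV4cis. In A2780, A2780cis and both hairpin samples no H3K27ac peak was listed in the span, and no H3K9ac peak in A2780 or A2780cis. Most of the acetylated length of this cluster was listed in CAOV4 alone. Clusters were stitched from CAOV4 peaks and ranked by their lost regions. Higher coverage in CAOV4 than in CAOV4cis, here and in the clusters below, therefore largely follows from that choice.

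A similar picture was seen in 2 more of the 5 clusters with the most lost regions. At chr19:41399601-41491200, 7 of 13 CAOV4 peaks were lost regions, covered length was 47.4 kb in CAOV4 and 14.6 kb in CAOV4cis, and all lists from A2780 cells were empty. At chr11:90533601-90649600, 5 lost regions covered 47.0 kb, total coverage was 93.6 kb in CAOV4 and 11.6 kb in CAOV4cis, and the A2780-derived lists were again empty. In each of these clusters 4 kept regions remained.

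The other two of these clusters were different. At chr14:93411201-93583600, 6 lost regions covering 21.8 kb lay among 7 kept and 2 gained ones, and total coverage was 109.0 kb in CAOV4 and 93.6 kb in CAOV4cis. H3K27ac peaks there covered 12.6 kb in A2780, 8.2 kb in A2780cis and 7.2 kb in each hairpin sample, and H3K9ac peaks 5.4 kb in A2780 and 4.6 kb in A2780cis. At chr16:1274601-1415400, 5 lost regions covered 22.2 kb, and coverage was 68.8 kb in CAOV4, 40.0 kb in CAOV4cis, 17.0 kb in A2780, 38.6 kb in A2780cis, 19.4 kb with shMBD3.26 and 17.0 kb with shMBD3.232. Of the 5 clusters, only those on chromosomes 14 and 16 had peaks in A2780 cells and could differ between A2780 and A2780cis. In the cluster on chromosome 16, A2780cis coverage exceeded that of A2780, in H3K9ac too, with 14.2 kb against 4.2 kb. The lost regions of this cluster had an A2780 peak in 1 and an A2780cis peak in 2 of 5 cases.

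Next in order was chr8:40187601-40272600, also with 5 lost regions. Coverage there was 51.6 kb in CAOV4 and 1.4 kb in CAOV4cis, with no peak in the lists from A2780 cells.

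**Figure D5:**
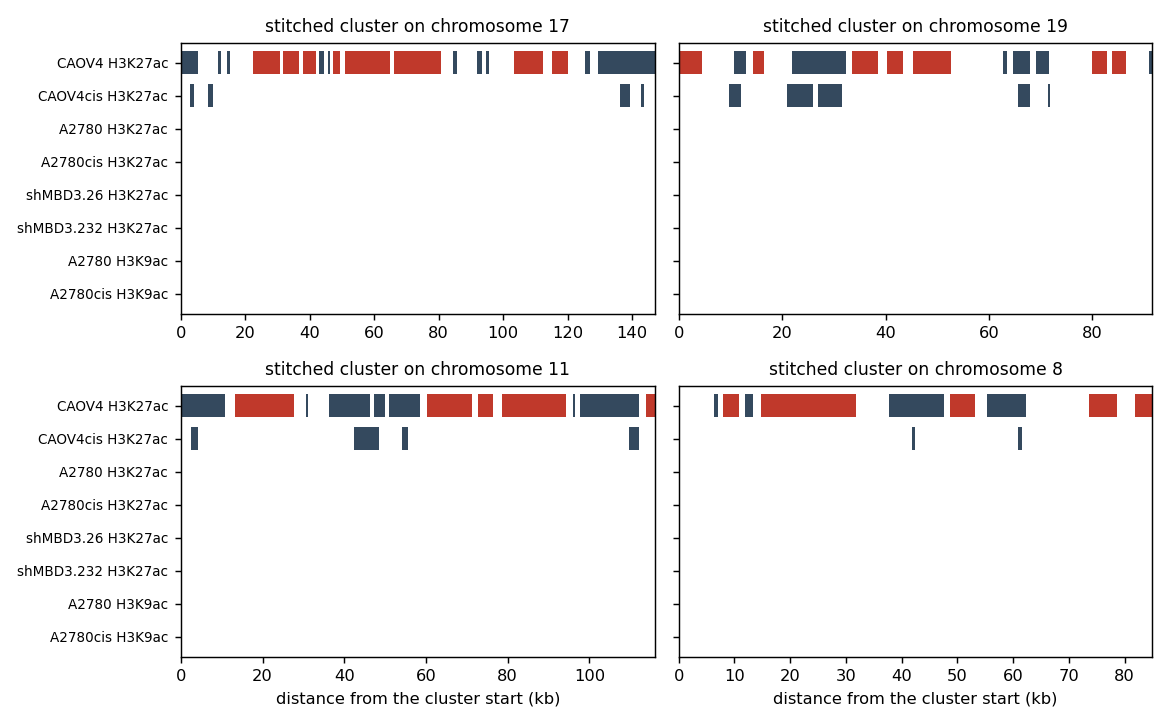
Listed peaks (bars, to scale) of all 8 lists (rows) in 4 clusters of stitched CAOV4 peaks, by distance from the cluster start in kb (x axes), with lost regions in red and all other peaks in dark blue. The clusters on chromosomes 17, 19 and 11 are among the 5 with the most lost regions, and that on chromosome 8 is the next in order. The clusters on chromosomes 14 and 16, also among the 5 and with peaks in A2780 cells, are not drawn. In the clusters on chromosomes 17, 19, 11 and 8, CAOV4 peaks cover 93.8, 47.4, 93.6 and 51.6 kb and CAOV4cis peaks 6.6, 14.6, 11.6 and 1.4 kb, and the 6 rows of A2780 cells are empty.

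Along the order of merged regions over 2000 bp, 1381 lost regions (66.0%) had no lost neighbour, and 711 (34.0%) lay in runs of at least 2 lost regions uninterrupted by a kept or gained one. Of all these merged regions 13.5% were lost, so some runs arise from that share alone. Whether there were more runs than that was not tested, and runs of gained regions were not counted. There were 222 runs of 2, 62 of 3, 11 of 4 and 6 of 5 or more, which held 37 lost regions. The longest, with 8 members, was chr17:68152401-68250000 in the cluster described above, without any CAOV4cis peak in its 97.6 kb.

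The second longest run, chr8:40261201-40491000, held 7 lost regions covering 33.8 kb of 229.8 kb. The runs chr3:78070001-78693600 and chr3:103014401-103536800 held 6 and 5 lost regions, were spread over 623.6 and 522.4 kb, and contained no CAOV4cis peak of any width. In all of these no lost region had a peak in an A2780-derived list. The run chr9:97574601-97672200 was different: of its 6 lost regions, 4 had an H3K27ac peak in A2780, 5 in A2780cis, 3 with shMBD3.26 and 3 with shMBD3.232, and 3 and 4 had H3K9ac in A2780 and A2780cis. A further run of 5, chr2:10975001-11265800, covered less length (23.6 against 27.2 kb in the run of 5 on chromosome 3), and 1 of its lost regions had a peak in A2780 and 1 in A2780cis.

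The 10 widest lost regions lay on 7 chromosomes. The widest was chr2:100243001-100262000 (19 kb), 9.2 kb from the nearest CAOV4cis peak and 133.2 kb from the nearest A2780 peak. It was followed by chr8:40202401-40219400 (17.0 kb), chr11:90612201-90628000 (15.8 kb), chr17:68196001-68210600 (14.6 kb) and chr11:90546801-90561200 (14.4 kb). Then came chr17:68181001-68195000 (14.0 kb), chr13:54752001-54764200 (12.2 kb), chr5:55615801-55627000 (11.2 kb) and chr11:90593801-90604800 (11.0 kb). All 9 of these lacked any peak in the 6 lists from A2780 cells.

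They also lay farther from A2780 H3K27ac peaks than from CAOV4cis ones. Over all lost regions the median distance to a CAOV4cis peak was 8000 bp. From the second to the ninth, the nearest A2780 H3K27ac peak was 323.6 to 1326.6 kb away and the nearest CAOV4cis peak 4.6 to 55.6 kb away. For the region on chromosome 5 the nearest peak was closer in A2780cis (149.4 kb) and with shMBD3.232 (149.6 kb) than in A2780 (323.6 kb). For the region on chromosome 8 it was 764.2 kb away in A2780cis and 1127.6 kb away in A2780.

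The tenth was the exception. The 11.0 kb region chr19:39335601-39346600, 8.4 kb from the nearest CAOV4cis peak, was covered over 8.2 kb in A2780, 10.4 kb in A2780cis and 11.0 kb in both hairpin samples. H3K9ac peaks covered 6.4 kb of it in A2780 and 6.2 kb in A2780cis. It was thus acetylated along most of its length in every H3K27ac sample but CAOV4cis.

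After it, the widest lost regions with a peak in all 4 A2780-derived lists were chr17:15549601-15559600 (10 kb), chr1:1501801-1511400 (9.6 kb) and chr19:49252201-49261800 (9.6 kb), chosen after their values were seen. The region on chromosome 17 was only grazed, with 0.2 kb covered in A2780, 1.8 kb in A2780cis and 1.0 kb in each hairpin sample. The one on chromosome 1, 38.2 kb from the nearest CAOV4cis peak, was covered over 8.8 kb in A2780, 9.6 kb in A2780cis, 7.8 kb with shMBD3.26 and 9.6 kb with shMBD3.232. For the one on chromosome 19 the values were 9.6, 6.0, 8.2 and 9.0 kb in the same order, and a CAOV4cis peak lay 2.4 kb away.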

How the data were processed

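Deposited data were 8 lists of peak positions, 1 per sample, called per sample and not pooled. Per the labels, mononucleosomes were made with MNase and 5% Drosophila mononucleosomes were added as a spike-in. In the authors' processing, reads were aligned with Bowtie2, ChIP-seq data were quantile normalized and peaks were called with MACS2, and the submitters' processing notes name GRCh37 and hg19 (tool versions are not given in the sources used here). The lists deposited by the authors hold starts and ends in bp and a score of 0, with all boundaries on a 200 bp grid and gaps of at least 1000 bp, so depth is unknown. Input samples were not analysed here.

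Peaks were merged, classed, looked up and stitched with Python 3.11.15, numpy 2.4.6 and pandas 2.3.3. A region counted as present in a list when it shared at least 1 bp with a peak. Merging was checked by removing randomly drawn peaks from the CAOV4 list, and lookup and stitching on a few made-up intervals. With 1 library per condition no test was run, and shares carry 95% Wilson intervals. Background shares are taken over all 15549 regions. Regions named were the 10 widest, the 5 clusters with the most lost regions (ties by covered length), the 5 bins with the highest share lost and the 5 longest runs (ties by covered length). The next cluster in order, on chromosome 8, was also named and drawn. The members, lists and rules were chosen with earlier results of these data known. Alternatives were another overlap, distance, width limit, stitching distance and lists limited to an equal number of widest peaks.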

Additional observations from a re-analysis of the deposited data

Results flagged for a closer look

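At 104 regions lost in CAOV4cis, the A2780 pair moved the opposite way, with a peak in A2780cis and none in A2780. This was 4.97% of the lost regions, against 3.86% of all regions and 4.34% of gained regions (also 104). Each line had 1 library and the difference between the pairs was not tested.

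Chromosome X lay outside the autosomal choice of regions. Of its 327 CAOV4 regions over 2000 bp, 142 had no CAOV4cis peak (43.43%, 38.2 to 48.8), above each autosome, while 18 regions were gained. The lists held 658 CAOV4 and 399 CAOV4cis peaks on it. Of the 142 lost regions, 70 had a peak in A2780 and 73 in A2780cis.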

How the results depend on the processing

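Of 39 values under other settings, 21 stayed within the interval or within 1.5 times of the value reported and 18 moved. Counting a CAOV4cis or other peak within 5 kb as present left 1248 lost regions, with a peak in 47.6% for A2780, 44.4% for A2780cis, 45.9% for shMBD3.26 and 41.3% for shMBD3.232, none of the 4 lists in 44.3%, another lost region in the stitched cluster for 13.1%, and a highest chromosome share of 22.9% (chromosome 2). A limit of 4000 bp left 402 lost regions, 37.3% with an A2780 peak, 12.4% clustered with another lost region and a highest chromosome share of 14.9% (chromosome 2). With each list limited to its 18936 widest peaks, 36.1% had an A2780 peak, 54.2% had none in the 4 lists, and the A2780-only share of regions with a peak in A2780 or A2780cis was 12.1%. Requiring 50% overlap raised the share clustered with another lost region to 26.5%, and stitching at 5 and 25 kb gave 11.2% and 35.3%. The chromosome with the highest share was chromosome 2 or 18, depending on the setting. Under the 4 alternatives of overlap, distance, width and list length, the A2780 share of lost regions stayed below that of kept regions (63.1% to 69.5%). It fell below that of gained regions only over 4000 bp (42.5% of gained regions, with overlapping intervals). The A2780-only share of lost regions stayed above the A2780cis-only share except with lists of equal length, where it was 12.1% against 15.0%; the cause was not tested.

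No paired analysis was possible because each condition had 1 library, which also left no replicate to take out in turn. A list records whether a stretch was called and not how strong it was, so weaker and absent acetylation, and differences between lines and between single libraries, cannot be told apart. The spike-in leaves no trace in the lists, and signal over background was not examined.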
